A study of Mus musculus with 5 samples.

Results

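Tumor neutrophils that still carried messenger RNA for the granule proteins Ngp or Camp made up 79 of 1020 cells in 3 whole-tumor libraries of the mouse 4T1 model of triple negative breast cancer. They were chosen by their own transcript counts. Cell barcodes with at least 200 detected genes were kept, and a neutrophil had unique molecular identifiers (UMIs, each marking 1 captured transcript) of at least 2 of the 6 genes Csf3r, Cxcr2, Retnlg, G0s2, Clec4d and Mmp9, at least 5 UMIs of S100a8 and S100a9 together, fewer than 3 UMIs of C1qa, C1qb and C1qc together and none of Cd3e or Epcam. This gate held 655 neutrophils, and the 79 described here also had at least 1 UMI of Ngp or Camp, which left 576 neutrophils with neither. The levels of Ngp, Camp and the gate genes are therefore a description of the choice and not a finding.

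All tumors were raised by placing 4T1 cells (the 4T1-Thy1.1 line) in mammary fat pads of BALB/c animals, recorded as 12 weeks of age. Doxorubicin (DOX), an anthracycline chemotherapy, was given by tail vein at 5 mg/kg in 3 doses with 3 days between doses, and the question was what distinguishes tumors whose growth DOX inhibits (sensitive) from tumors it leaves unaffected (resistant). The control-labelled library came from a saline-treated mouse, and the sensitive-labelled and resistant-labelled libraries came from DOX-treated mice. Tumors were dissociated enzymatically with no sorting of cells, so neutrophil yield also depended on the digest, and each group was 1 library with no replicate, so no difference between libraries could be tested. The source description of the resistant-labelled library names a sensitive tumor although its title and DOX sensitivity field read resistant. The control library's source description also mentions sensitive tumors, with saline given, and libraries are named by label for these reasons.

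Neutrophils fill their granules in a fixed order while they mature in the bone marrow. Primary granules, with myeloperoxidase and elastase, are made first, secondary granules, with lactoferrin (Ltf), lipocalin 2 (Lcn2), cathelicidin (Camp) and neutrophilic granule protein (Ngp), follow at the myelocyte and metamyelocyte stages, and gelatinase granules come last. Transcription of secondary granule genes is driven in large part by C/EBP factors and falls before the cell leaves the marrow, whereas neutrophils in inflamed tissue transcribe cytokines and chemokines such as Il1b and Cxcl2. Messenger RNA of Ngp and Camp in a tumor neutrophil is thus commonly read as a mark of an early stage.

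Ngp, Camp and Ltf lie near each other on mouse chromosome 9, and the stretch from 250 bases before to 50 bases after each start site is shown because RNA of these 3 genes was found largely in the same cells. The sequences are from RefSeq (GRCm38.p6), 5′ to 3′ on the strand of the gene, for Ngp at chr9:110419558-110419857 (plus strand), Camp at chr9:109849407-109849706 (minus strand) and Ltf at chr9:111019042-111019341 (plus strand). Capitals mark TTGNNCAA, a C/EBP-type motif that reads the same on both strands.
Ngp promoter: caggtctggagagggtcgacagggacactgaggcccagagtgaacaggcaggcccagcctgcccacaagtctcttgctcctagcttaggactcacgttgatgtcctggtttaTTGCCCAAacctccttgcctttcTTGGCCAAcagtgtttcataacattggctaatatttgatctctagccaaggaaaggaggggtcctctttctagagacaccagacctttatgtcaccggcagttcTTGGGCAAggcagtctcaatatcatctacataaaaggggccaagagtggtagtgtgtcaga
Camp promoter: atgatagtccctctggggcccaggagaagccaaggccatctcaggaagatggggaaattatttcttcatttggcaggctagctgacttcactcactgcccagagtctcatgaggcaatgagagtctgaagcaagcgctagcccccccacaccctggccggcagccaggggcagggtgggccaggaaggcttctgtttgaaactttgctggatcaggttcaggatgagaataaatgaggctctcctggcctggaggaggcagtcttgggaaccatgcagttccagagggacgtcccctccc
Ltf promoter: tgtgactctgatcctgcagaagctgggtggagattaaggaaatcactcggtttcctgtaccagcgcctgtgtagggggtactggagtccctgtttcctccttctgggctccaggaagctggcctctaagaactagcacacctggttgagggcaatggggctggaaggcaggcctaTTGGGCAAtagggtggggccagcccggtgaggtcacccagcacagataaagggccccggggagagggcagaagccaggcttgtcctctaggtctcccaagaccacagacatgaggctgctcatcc

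The Ngp window held 3 matches to TTGNNCAA, at -138, -115 and -11 from the start site. The Ltf window held 1 match, at -75, and the Camp window held 0. Of 32851 mouse promoter windows of this length 2102 (6.4%) held at least 1 match, and 5 (0.0152%) held 3 or more. The PU.1-type motif GAGGAA, searched on both strands, was found in 9289 windows (28.3%) and among these 3 genes only in Ltf, on the minus strand. The motif letters were picked after the sequences had been seen, and a match is a run of letters, not a bound site.

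The gated cells carried the neutrophil program they were chosen for. All 12 genes of a neutrophil marker list were seen in the members of each library, and S100a8 and S100a9, the calprotectin subunits, made up a median of 26.3%, 13.5% and 18.3% of a member's UMIs in control, sensitive and resistant, in that order. No barcode was shared between libraries, and doublets were not removed. Of other cell types, B cell markers were at 0 UMIs in every member. A list of 11 macrophage and monocyte markers summed to 256, 26 and 1 UMIs in 24, 6 and 1 members, which is 42.9% of control members against 18.8% of the other control neutrophils. Of these markers C1qa, C1qb and C1qc, which the gate limits, and Adgre1, Ms4a7 and Ccr2 were at 0 in all members. T cell markers came to 21, 2 and 1 UMIs in 11, 2 and 1 members. The part of these markers in the results was not tested. Fibroblast markers were at 1515, 1 and 0 UMIs, and 1103 of the control UMIs lay in 1 cell. In 4 members S100a8 and S100a9 made up under 0.5% of the UMIs. These were 3 control cells, with 51844 UMIs (19.6% of the control members' total), and 1 sensitive cell, with 7128 UMIs (12.4%), and each had a single Ngp or Camp UMI. These 4 cells pass the rule but stand apart from most members, and results that rest on them are given with and without them. The cut is not sharp, as the lowest share among the other control members was 0.733%.

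**Figure D1:**
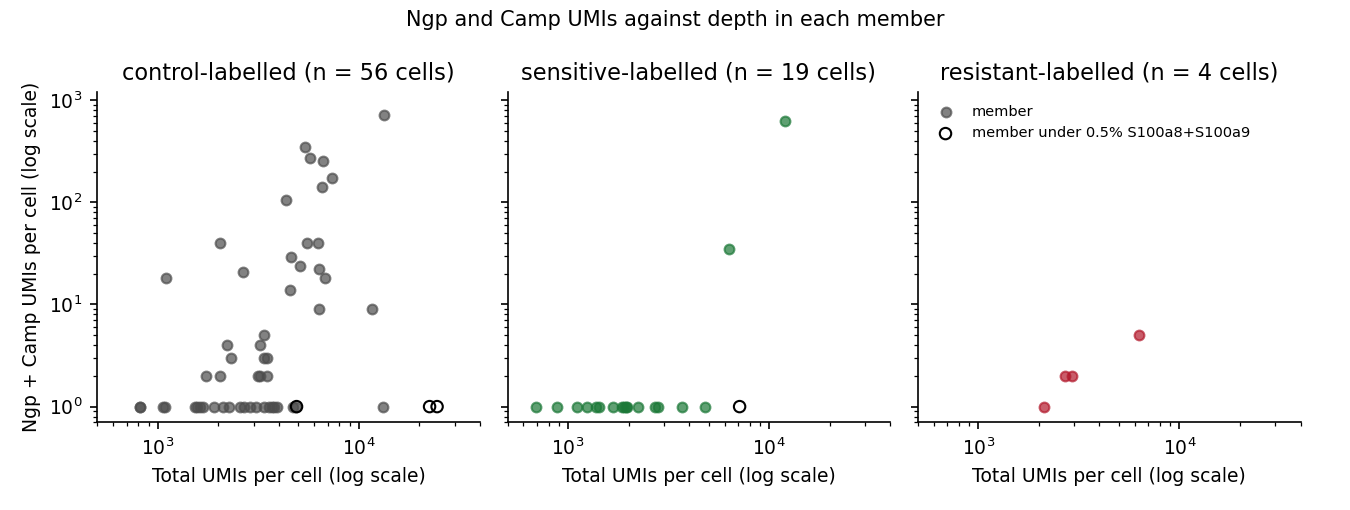
Each point is a neutrophil with Ngp or Camp, placed by its total UMIs (log axis) and by its summed Ngp and Camp UMIs (log axis), with a panel for each library and open symbols for the 4 members under 0.5% S100a8 and S100a9. The control cells spread from 1 to 713 UMIs, the sensitive cells sit at 1 except for cells at 35 and 622, and the resistant cells lie between 1 and 5.

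Neutrophils with Ngp or Camp were counted most often in the control-labelled tumor. There were 56 among 488 kept cells of the control library, which is 11.5% (8.79% to 14.6%, exact Clopper-Pearson 95% interval, as for the shares below). The sensitive-labelled library held 19 among 269 (7.06%, 4.31% to 10.8%), and the resistant-labelled library held 4 among 263 (1.52%, 0.416% to 3.85%). As a share of gated neutrophils the values were 18.6% of 301 in control (14.4% to 23.5%), 8.68% of 219 in sensitive (5.30% to 13.2%) and 2.96% of 135 in resistant (0.813% to 7.41%). For the share of neutrophils the control interval does not overlap the other two, while those of the sensitive and resistant libraries overlap each other. For the share of kept cells control and sensitive overlap, and sensitive and resistant do not. These intervals cover counting error only and say nothing of how tumors of 1 group vary.

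A single UMI of Ngp or Camp, as in 44 of the members, was also seen in cells outside the gate. Free RNA in droplet data places UMIs in cells that do not make a transcript, and outside the neutrophil gate a UMI of either gene was seen in 14 of 187 control cells (7.49%, 4.15% to 12.2%), 5 of 50 sensitive cells (10%, 3.33% to 21.8%) and 1 of 128 resistant cells (0.781%, 0.0198% to 4.28%). Median depth outside the gate was 1494, 1070 and 5766 UMIs, against 1572, 1607 and 2159 in gated neutrophils. The sensitive share of 8.68% lies below the 10% outside its gate, whose interval is wide, and is not read as expression, apart from the few bright cells described next. After each cell was thinned at random to 500 UMIs, 9.30% of control neutrophils (28 of 301) kept a UMI of either gene against 0.535% outside the gate, 2.78% of sensitive neutrophils (6 of 216) against 2.27%, and 1.48% of resistant neutrophils (2 of 135) against 0 of 128, which allows a share of up to 2.34% (3 counts of the total). Thinning left out 3 sensitive neutrophils and 6 sensitive cells outside the gate.

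**Figure D2:**
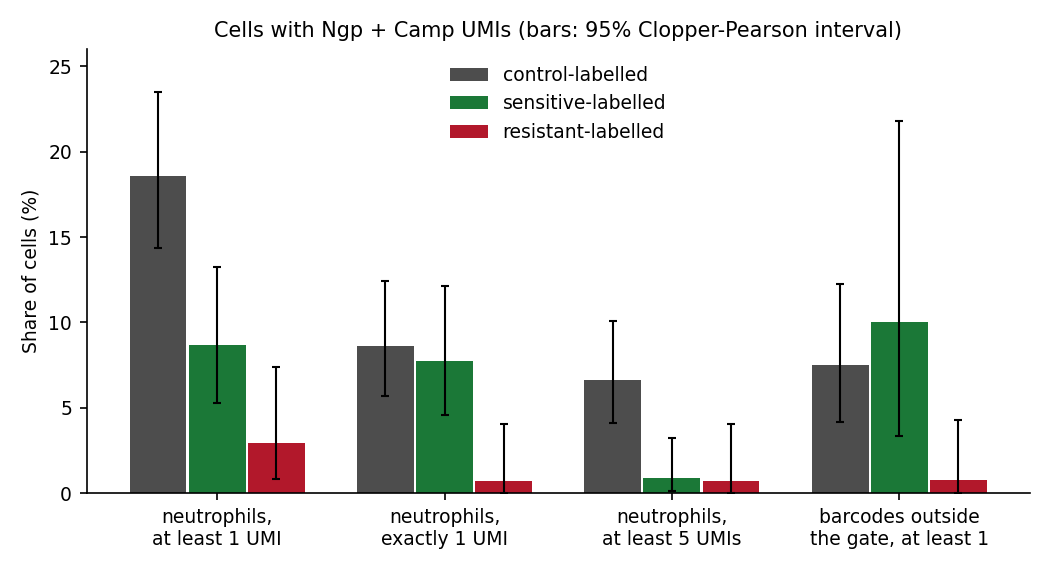
Percent of gated neutrophils with Ngp or Camp UMIs in each whole-tumor library, with 95% Clopper-Pearson bars, for any UMI, for exactly 1 UMI and for at least 5 UMIs, beside the share outside the gate. The share with exactly 1 UMI is alike in control and sensitive (8.64% and 7.76%), and the share with at least 5 UMIs is 6.64% in control and under 1% in the others.

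Almost all Ngp and Camp RNA sat in a minority of bright cells, and these were nearly confined to the control-labelled library. Summed over members, control held 2346 UMIs of Ngp and Camp, sensitive 674 and resistant 10. Per cell the lowest, median and highest counts were 1, 2 and 713 in control, 1, 1 and 622 in sensitive and 1, 2 and 5 in resistant. Exactly 1 UMI was seen in 26 control, 17 sensitive and 1 resistant member, of which 41 had Ngp and 3 had Camp. At least 5 UMIs were seen in 20 control, 2 sensitive and 1 resistant member, and these 23 cells held 97.5% of all Ngp and Camp UMIs. As a share of neutrophils, cells with at least 5 UMIs came to 6.64% in control (4.11% to 10.1%), 0.913% in sensitive (0.111% to 3.26%) and 0.741% in resistant (0.0188% to 4.06%). Cells with exactly 1 UMI came to 8.64% in control (5.72% to 12.4%) and 7.76% in sensitive (4.59% to 12.1%), intervals that overlap over most of their length. Both genes were detected together in 16 control cells, 1 sensitive cell and 0 resistant cells.

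The brightest cells illustrate how the granule genes went together. The brightest control cell had 444 UMIs of Ngp, 269 of Camp, 105 of Ltf, 189 of Lcn2, 205 of Ifitm6 and 47 of the 74 control UMIs of Olfm4, a secondary granule glycoprotein found in a subset of neutrophils. The brightest sensitive cell was also high in these granule genes but had 0 UMIs of Olfm4, with 504 UMIs of Ngp, 118 of Camp, 79 of Ltf, 225 of Lcn2 and 124 of Ifitm6. The other bright sensitive cell had 35 UMIs, all Ngp, and 0 of Ltf. So 622 of the 674 sensitive UMIs, and all 79 Ltf UMIs of the sensitive members, came from 1 cell. The 4 resistant members had 5, 2, 2 and 1 UMIs of Ngp, 0 of Camp and 0 of Ltf, but 23, 7, 9 and 4 UMIs of Lcn2. Of the 20 bright control cells, 16 had a UMI of Ltf, 19 of Lcn2, 19 of Ly6g (the surface antigen used to sort mouse neutrophils) and 20 of Ifitm6 (an interferon-induced transmembrane family member seen in maturing myeloid cells). Among the 26 control members with exactly 1 UMI, 1 had Ltf, 20 had Lcn2, 6 had Ly6g and 17 had Ifitm6. Il1b, which encodes interleukin 1 beta, was the reverse, with a UMI in 14 of the 20 bright cells and 25 of the 26 cells with 1 UMI. Bright cells were also deeper, at a median of 5620.5 UMIs against 2779 in those with 1 UMI and 1449 in control neutrophils with none, so shares of cells with a UMI favour them and the levels below are scaled to total UMIs.

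In the control-labelled library secondary granule genes were higher, and chemokine genes lower, with more Ngp and Camp UMIs. Levels are UMIs per 1000000 UMIs (CPM) summed over the cells of a class, leaving out cells under 0.5% S100a8 and S100a9, for 236 cells with no UMI, 23 with 1, 10 with 2 to 4 and 20 with at least 5. Ltf, the iron-binding lactoferrin, was at 18.1, 0, 35.4 and 2563 CPM in these classes, so only the brightest class stood above the limit of 3 counts by more than a few UMIs. Lcn2, a siderophore-binding protein, was at 1182 CPM (1076 to 1295, exact Poisson 95% interval), 3504 (3075 to 3975), 4746 (3976 to 5620) and 8953 (8416 to 9516). Ifitm6 was at 552, 3300, 2833 and 10434 CPM, and Ly6g at 70.0, 305, 354 and 1022 CPM. Pglyrp1, a peptidoglycan-binding granule protein, was at 1182, 2152, 3152 and 4139 CPM. Prok2, a secreted chemoattractant peptide, peaked in the class with 2 to 4 UMIs, at 1076, 1832, 4533 and 2286 CPM. Intervals of neighbouring classes overlapped for Ifitm6 and Ly6g between 1 UMI and 2 to 4 UMIs, and did not overlap for Lcn2 between 0 and 1.

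Il1b and several chemokine genes ran the other way in the same control cells. Il1b was at 6904 CPM (6645 to 7172) with no Ngp or Camp UMI, 3838 (3389 to 4330) with 1, 2090 (1591 to 2695) with 2 to 4 and 1126 (941 to 1337) with at least 5. Cxcl2, a chemokine that attracts neutrophils, was at 15908, 8476, 2692 and 4078 CPM. Cxcl3, its close relative, was at 2416, 1134, 496 and 147 CPM. Ccl3 and Ccl4, which attract monocytes and lymphocytes, were lowest in the class with 2 to 4 UMIs, with Ccl3 at 1218, 160, 70.8 and 398 CPM. Ccrl2, an atypical chemokine receptor induced on activated neutrophils, was at 1169, 378, 106 and 25.98 CPM, the last from 3 UMIs in 115492. In control, then, even the cells with a single Ngp or Camp UMI lay between the neutrophils with none and the bright cells for Il1b, Cxcl2, Cxcl3 and Ccrl2.

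In the sensitive-labelled library the cells with a single UMI were close to the neutrophils with none for Lcn2, Ly6g and Cxcl2, but not for Ifitm6 and Il1b. Over 16 such cells Lcn2 was at 900 CPM (602 to 1292) against 809 (713 to 914) in 194 neutrophils with none, Ly6g at 62.0 (7.51 to 224) against 50.5 (28.9 to 82.1), and Cxcl2 at 15541 (14210 to 16963) against 16044 (15606 to 16492). Each of these pairs of intervals overlapped. Ifitm6 was higher in cells with 1 UMI, at 745 CPM (477 to 1108) against 177 (134 to 230), from 4 cells, and Il1b was lower, at 5584 (4798 to 6461) against 7015 (6726 to 7313). Summed, the 2 bright sensitive cells had Lcn2 at 13349 CPM, Ifitm6 at 8371, Ly6g at 2517, Il1b at 2134 and Cxcl2 at 2954. They differed from each other, with 225 and 19 UMIs of Lcn2 and 0 and 39 UMIs of Il1b.

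**Figure D3:**
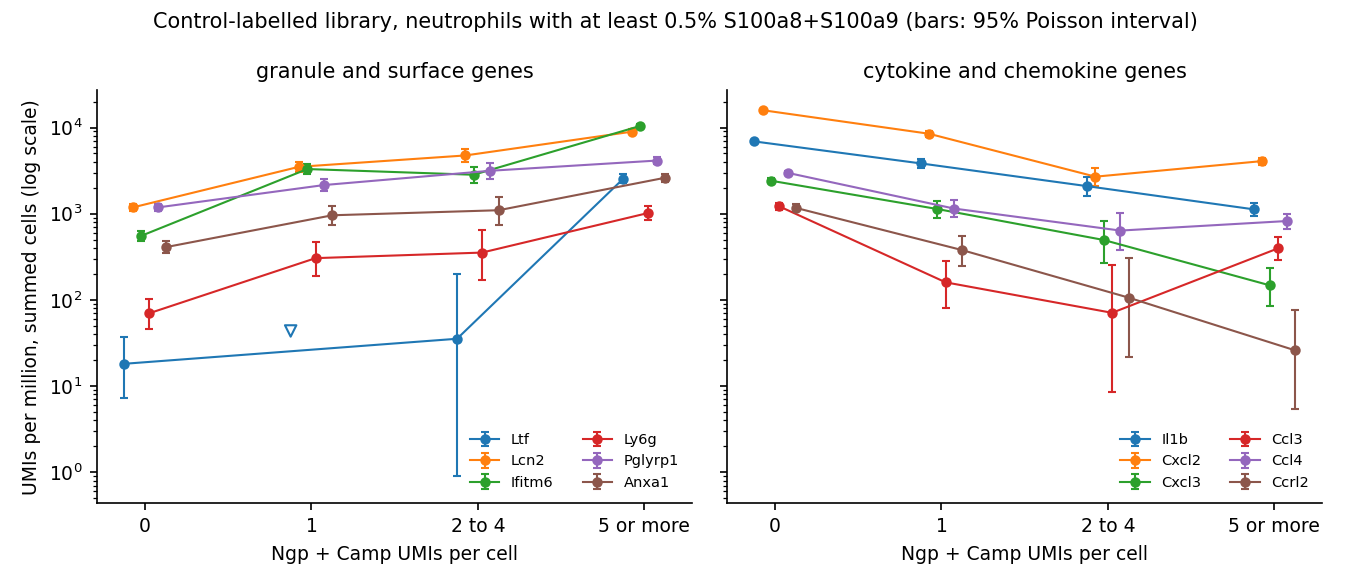
CPM (log axis) of granule and surface genes (left) and of cytokine and chemokine genes (right) in control-labelled neutrophils with 0, 1, 2 to 4 and at least 5 UMIs of Ngp and Camp, with exact Poisson 95% bars and an open triangle at the 3-count limit where Ltf had no UMI. Lcn2 goes from 1182 to 8953 and Il1b from 6904 to 1126 across the classes, while Ccl3 is lowest at 2 to 4 UMIs.

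Compared with neutrophils of the same library that lacked Ngp and Camp, the members had more RNA of several secondary granule genes, of Ly6g and of Ifitm6, and less of several chemokine genes. The UMIs of members and of other neutrophils were summed in each library and compared by edgeR's quasi-likelihood test with the library as a block, over 2323 genes, with the genes of the rule left out. At an adjusted p under 0.05 (Benjamini-Hochberg), 36 genes were higher in members (1.55% of those tested) and 32 were lower (1.38%), 2.93% in all. The 3 libraries were of different conditions and 1 of them gave only 4 members, so the test asks for a difference shared across them, and cells of 1 library are not replicates. The count depended on which libraries and cells entered. It was 152 without the resistant-labelled library, 21 without control and 25 without sensitive, 120 without cells under 0.5% S100a8 and S100a9, and 2 when members with exactly 1 UMI stood for the members.

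Ifitm6 had the firmest difference. Levels of Ifitm6, Ly6g and Lcn2 in this paragraph are CPM of a total without the genes of the rule. Members held 1512, 177 and 46 UMIs of Ifitm6 in control, sensitive and resistant. Its level was 7654, 3836 and 4077 CPM in members against 586, 179 and 377 in the others. Members were higher in all 3 libraries, and the log2 fold change was 3.85 ± 0.33 (SE, adjusted p = 9.54e-28). In the resistant-labelled library 45 of the 46 UMIs came from 1 cell. Ly6g was at 754, 1040 and 266 CPM in members against 70.6, 51.1 and 76.0 in the others (log2 3.48 ± 0.44, adjusted p = 4.74e-12). In sensitive 2 members held 30 and 16 of the 48 Ly6g UMIs, and in resistant 1 member held all 3. Lcn2 was at 7275, 5917 and 3811 CPM against 1251, 830 and 1454 (log2 2.29 ± 0.31, adjusted p = 5.85e-11). For these 3 genes members lay above the others in every library, and among the settings tried the call was lost only where members were limited to cells with exactly 1 UMI (adjusted p = 0.891, 1.00 and 1.00, in this order). Ly6g could not be tested after thinning.

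Serpinb1a, an inhibitor of primary granule proteases, had the largest fold change of the genes that rose in every library, at log2 4.43 ± 0.70 (adjusted p = 1.61e-07), from 28 UMIs in members against 4 in others. In sensitive its members held 4 UMIs, all in 1 cell, against 0 in others, and in resistant 1 UMI against 1. It had too few UMIs to be tested without control. Cd177, a surface glycoprotein of secondary granules, rose by log2 2.71 ± 0.49 (adjusted p = 8.87e-06), a call that was lost without the control library (adjusted p = 0.0729). Ceacam10 rose by log2 2.86 from 70 UMIs against 33, and G6pdx, the enzyme that opens the pentose phosphate pathway, by 2.89 from 31 against 20. Adpgk, an ADP-dependent glucokinase, rose by 2.91 from 26 UMIs against 10. Aldh2 (2.37) and Adss (2.31), both metabolic enzymes, completed the 10 named genes that rose. Without the sensitive library G6pdx, Aldh2 and Adss lost their calls (adjusted p = 0.0869, 0.617 and 0.352), and without control Aldh2 and Adss did (adjusted p = 0.207 and 0.148). With no filter on low counts Adpgk and Adss were not called (adjusted p = 0.0571 and 0.255), and with no library block Adss was not (0.0661).

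Among secondary granule genes 5 of the 12 tested rose and none fell, beside 1.55% and 1.38% over all genes, with a median log2 fold change of 1.11 against -0.07 over all genes. These were Lcn2, Cd177, Anxa1 (annexin A1, log2 1.97 ± 0.36, adjusted p = 9.1e-06), Pglyrp1 (1.40 ± 0.33, adjusted p = 0.00146) and Cybb (the catalytic subunit of the phagocyte NADPH oxidase, 2.02 ± 0.56, adjusted p = 0.0188). Cybb was at 0 UMIs in the 4 resistant members. Without the sensitive library the calls for Anxa1 (adjusted p = 0.0837), Pglyrp1 (0.487) and Cybb (0.672) were lost, and without control that for Cybb was (0.886). After thinning to 500 UMIs those for Anxa1 (0.325) and Pglyrp1 (0.794) were lost as well. DESeq2 did not call Pglyrp1 (0.0576) or Cybb (0.451). Ltf had too few UMIs outside the members to pass the filter on low counts and was not tested, Olfm4 missed the threshold (1.80 ± 0.61, adjusted p = 0.0823) and lay below the others in the sensitive and resistant libraries, and Chil3 had 0.83 ± 0.60 (adjusted p = 0.684). Of 11 tertiary granule and secretory vesicle genes, Prok2 (1.51 ± 0.34, adjusted p = 0.000941) and Mmp8 (neutrophil collagenase, 1.75 ± 0.40, adjusted p = 0.00141) rose, and Mmp8 lost its call without control (0.284) or without sensitive (0.352). The call for Prok2 was lost with no filter on low counts (0.0951), with no library block (0.184) and after thinning (0.827). Mmp8, Pglyrp1 and Cybb likewise lost their calls with no filter on low counts (adjusted p = 0.160, 0.127 and 0.229) and with no library block (0.103, 0.103 and 0.238). All 39 Prok2 UMIs of the resistant members were in 1 cell.

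The defining genes of primary granules and of dividing cells were nearly absent. Mpo, Elane, Ctsg, Ms4a3 and Fcnb, the marks of promyelocytes and myelocytes, had 0 UMIs in all 79 members, and Prtn3 had 1. Mki67 and Top2a, which mark dividing cells, also had 0 UMIs, and none of 5 cell cycle genes tested passed. Other genes of these lists were seen, such as Cd63, a granule membrane protein, with 65 UMIs in control members, and Hmgb2, a chromatin protein, with 142. A count of 0 in the 336052 UMIs of the members allows a level of up to 8.93 CPM.

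Of 11 chemokine and chemokine receptor genes tested, 5 were lower in members and none higher, beside 1.38% lower over all genes, with a list median of -1.10. Ccl4 fell by 2.06 ± 0.34 on the log2 scale (adjusted p = 3.38e-07), Ccrl2 by 1.74 ± 0.36 (adjusted p = 0.000255), Cxcl3 by 1.55 ± 0.34 (adjusted p = 0.000701), Ccl3 by 1.45 ± 0.36 (adjusted p = 0.00348) and Cxcl2 by 1.02 ± 0.25 (adjusted p = 0.00301). Library by library the fall of Cxcl2 was 1.56 in control, 0.26 in sensitive and 1.19 in resistant, so members of the sensitive library were little lower than their neighbours. Ccl4 passed whichever library was left out but not after thinning to 500 UMIs (adjusted p = 0.524). Thinning also ended the calls for Ccrl2 (0.524), Cxcl3 (0.524), Cxcl2 (0.448) and Ccl3 (0.827). With no library block Ccrl2 (0.191), Cxcl3 (0.0895), Cxcl2 (0.184) and Ccl3 (0.110) were not called. Without control the calls for Ccrl2 (adjusted p = 0.127), Cxcl3 (0.106), Ccl3 (0.207) and Cxcl2 (0.517) were lost, and without sensitive those for Cxcl3 (0.496) and Ccl3 (0.360) were. DESeq2 did not call Cxcl2 (adjusted p = 0.407), Cxcl3 (0.120) or Ccl3 (0.0747). In the inflammatory list Il1b fell by 0.87 ± 0.27 (adjusted p = 0.0455), by 1.61 in control, 0.38 in sensitive and 0.55 in resistant. This call was lost with DESeq2 (adjusted p = 0.513), without control (0.886) and without sensitive (0.345). It was also lost with no library block (0.273) and after thinning (0.524). Tnf fell by 3.36 ± 0.91 (adjusted p = 0.0129), from 2 UMIs in members against 123 in others, a ratio of pooled CPM of 0.0547 (0.00655 to 0.202). It was not called without control (adjusted p = 0.215), without sensitive (0.617), with DESeq2 (0.132) or with no library block (0.0895). Wfdc21, a whey acidic protein family member, rose by 1.18 ± 0.27 (adjusted p = 0.00124). Its call was lost without sensitive (0.284), with no filter on low counts (0.0848), with no library block (0.0661) and after thinning (0.524).

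The genes with the largest falls included some that were at or near 0 in members. Ralgds, an exchange factor for Ral proteins, had 0 UMIs in members against 72 in others, at least 7.13-fold lower against a limit of 3 counts over all members. Ms4a6c, a myeloid membrane protein, had 0 against 61, at least 6.04-fold lower. S100a4, a calcium-binding protein, had 1 UMI against 127, a ratio of 0.0265 (0.000666 to 0.150). Ccl24, an eosinophil-attracting chemokine, had 3 UMIs against 302 (ratio 0.0334, 0.00686 to 0.0986), and Areg, an epidermal growth factor receptor ligand, had 1 against 63. The heat shock genes Hspa1a and Hspa1b, which code for near-identical proteins and can share reads, had 7 against 286 and 4 against 158 UMIs. Hist1h4h (1 UMI against 52) and Naa50 (2 against 89) were the others named by rank. Ccl24 passed whichever library was left out, and without sensitive Ralgds, Ms4a6c, S100a4, Areg, Hspa1a, Hist1h4h and Naa50 missed the threshold (adjusted p from 0.0560 for Hspa1a to 0.307 for Hist1h4h). Without control Ralgds (0.472), S100a4 (0.262), Areg (0.382) and Naa50 (0.832) missed it too. With no library block Ralgds, Ms4a6c, Areg, Hspa1a, Hist1h4h, Hspa1b and Naa50 did as well (adjusted p from 0.0661 to 0.184). The transcription factors Klf2 (-1.56 ± 0.34, adjusted p = 0.000520) and Junb (-1.03 ± 0.31, adjusted p = 0.0411) and the survival gene Bcl2a1b (-1.60 ± 0.48, adjusted p = 0.0391) were lower as well. Klf2 was not called without sensitive (0.0943), nor Junb and Bcl2a1b without control (0.422 and 0.856) or sensitive (0.361 and 0.345), and Junb also missed the threshold without resistant (0.0562). With no library block Klf2 (0.106), Junb (0.135) and Bcl2a1b (0.139) were not called. After thinning to 500 UMIs Klf2 (0.870) and Junb (0.547) were not called either. DESeq2 did not call Hspa1b (0.0560), Junb (0.309) or Bcl2a1b (0.307). None of 13 interferon-stimulated genes, 10 p53 targets, 10 IL-17 and G-CSF response genes or 9 MHC class I genes passed the test. With members of at least 2 UMIs Gadd45b (-2.07, adjusted p = 0.0132) and Cdkn1a (-1.43, adjusted p = 0.0484) passed, and Isg15 passed with at least 5 (adjusted p = 0.00213). Of 16 hypoxia and glycolysis genes only Ndrg1 rose (2.03 ± 0.46, adjusted p = 0.000941), and its direction turned to -2.26 with members of at least 2 UMIs and -2.43 with at least 5.

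**Figure D4:**
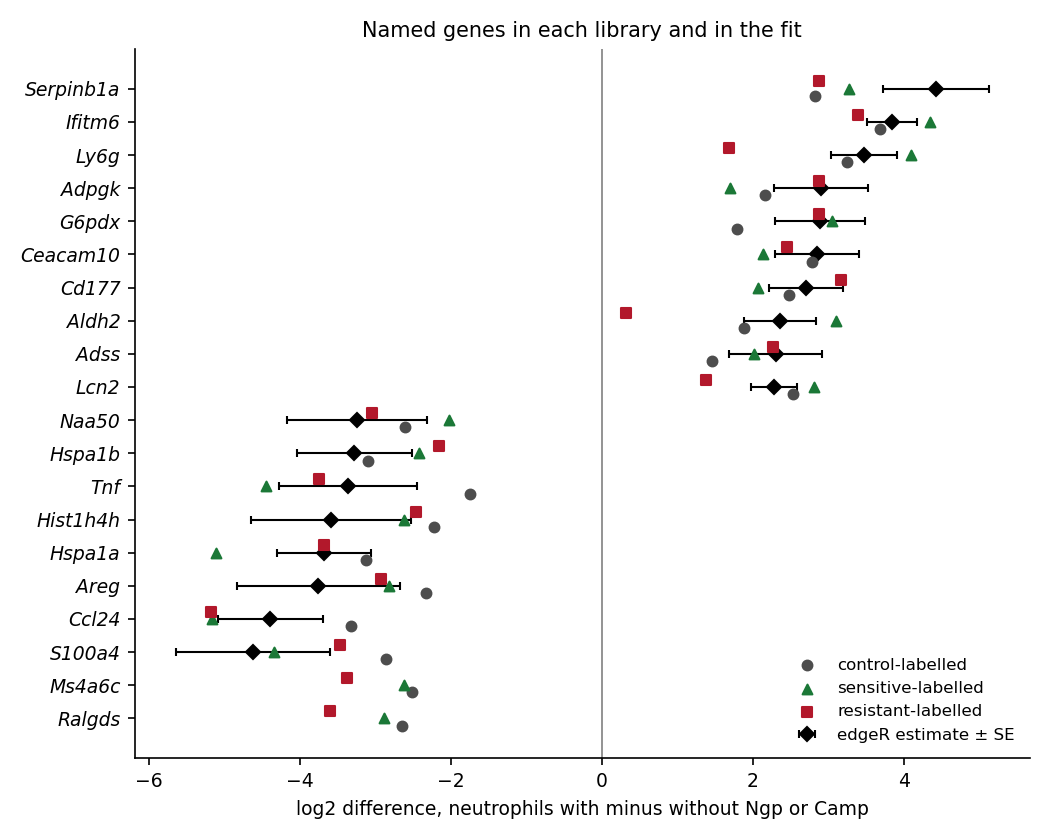
Log2 difference in CPM between neutrophils with and without Ngp or Camp in each library (colored points), with a constant added to each CPM. Totals leave out the genes of the rule. Black diamonds and bars give edgeR's estimate and an SE derived from its F statistic, for the genes named by rank. Ralgds and Ms4a6c are shown without an estimate because no member had a UMI. Ifitm6, Ly6g and Lcn2 lie at 3.85, 3.48 and 2.29. Genes were named only if their difference had the same sign in all 3 libraries, so points on 1 side of 0 follow from that choice.

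Between libraries, Il1b, Cxcl2, Ccrl2, Gadd45b and Cdkn1a were higher for their depth in members of the sensitive-labelled tumor than in those of control, and Ifitm6, Prok2 and Pglyrp1 were lower. Several of these differences shrank or turned with members of at least 2 Ngp and Camp UMIs, as given below. Ratios of CPM were taken over the summed members (264359 UMIs in control, 57644 in sensitive, 14049 in resistant), with exact conditional binomial 95% intervals and no test. Among 985 genes with at least 30 UMIs over both, 140 were at least 2-fold higher in sensitive (14.2%) and 157 at least 2-fold lower (15.9%), 30.2% in all, with a median ratio of 1.10. Between resistant and control 134 of 859 genes were higher (15.6%) and 244 lower (28.4%), 44% in all, with a median ratio of 0.911. Between sensitive and resistant 42 of 307 genes were higher in sensitive (13.7%) and 16 lower (5.21%), 18.9% in all. The comparisons with control share its members, and the resistant values rest on 4 cells. Without the 4 members under 0.5% S100a8 and S100a9, 102 of 677 genes were higher in resistant than in control (15.1%) and 115 lower (17%), 32.1% in all, and 29 of 269 were higher in sensitive than in resistant (10.8%) and 14 lower (5.2%), 16% in all.

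Lcn2 was at 5436 CPM in control, 4736 in sensitive and 3061 in resistant, a ratio of 0.871 (0.763 to 0.992) for sensitive over control and 0.563 (0.406 to 0.762) for resistant over control. Ltf was at 1127, 1371 and 0 CPM, and the resistant value is at least 5.28-fold below control at the 3-count limit of that library. Ngp was at 6313, 9611 and 712 CPM and Camp at 2561, 2082 and 0. The sensitive values of Ngp, Camp, Ltf and Lcn2 rest on the brightest cell of that library, which held 225 of the 273 Lcn2 UMIs. Leaving out the deepest member of each library, which in sensitive is that bright cell and in control a cell with 1 Ngp UMI, put the sensitive over control ratio at 0.157 for Ngp, 0.0155 for Camp and 0.175 for Lcn2. With members of at least 2 Ngp and Camp UMIs it was 2.58 for Ngp, 2.09 for Ltf, 1.64 for Lcn2 and 0.999 for Pglyrp1. In control the brightest cell held 713 of the 2346 Ngp and Camp UMIs, and 16 of the 20 bright cells had Ltf. Pglyrp1 was at 2712, 1770 and 1352 CPM, a ratio of 0.652 (0.525 to 0.804) and 0.499 (0.298 to 0.785). Ifitm6 was at 5720, 3071 and 3274 CPM, a ratio of 0.537 (0.457 to 0.628) and 0.573 (0.417 to 0.768). In sensitive 124 of the 177 Ifitm6 UMIs and 62 of the 102 Pglyrp1 UMIs lay in the brightest cell. Without the deepest member of each library the Pglyrp1 ratio of sensitive over control was 0.293. By UMI class, as given above, Ifitm6 was nearer to control in the bright sensitive cells than over all members. Prok2 was at 1963, 503 and 2776 CPM, which put sensitive at 0.256 of control (0.170 to 0.373). The neutrophils without Ngp and Camp differed between libraries in these genes too, with Pglyrp1 at 1029, 635 and 811 CPM, Ifitm6 at 503, 158 and 329 and Prok2 at 932, 319 and 546. Olfm4 was at 280 CPM in control and 1 UMI in sensitive, a ratio of 0.0620 (0.00155 to 0.356). Of 11 secondary granule genes with enough UMIs none was 2-fold higher in sensitive and only Olfm4 was 2-fold lower, with a list median of -0.50 against 0.14 over all genes on the log2 scale. In resistant 4 of 11 lay below 0.5 of control, beside 28.4% of all genes, and of these Olfm4 and Cybb were at 0 UMIs with a 3-count limit too high to show a 2-fold difference.

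Il1b, Cxcl2 and Ccrl2 were higher in members of both DOX-treated tumors than in control. Il1b was at 1725 CPM in control, 4424 in sensitive and 5196 in resistant, a ratio of 2.56 (2.19 to 3.00) and 3.01 (2.32 to 3.86). Cxcl2 was at 4316, 11415 and 7047 CPM, a ratio of 2.64 (2.40 to 2.91) and 1.63 (1.32 to 2.01). Ccrl2 was at 121, 798 and 641 CPM, a ratio of 6.59 (4.11 to 10.7) and 5.29 (2.22 to 11.4). The ratios of Ccrl2 were 2.62 and 18.1 with members of at least 2 Ngp and Camp UMIs, and the resistant ratio turned to 0.470 when members with markers of other cell types were left out. Among neutrophils without Ngp and Camp, Il1b was at 6053, 6370 and 8271 CPM and Cxcl2 at 14657, 15072 and 17525, so the libraries differed much less there. Without the 4 cells under 0.5% S100a8 and S100a9 the sensitive over control ratio was 2.03 for Il1b and 2.07 for Cxcl2. With members of at least 2 Ngp and Camp UMIs, 30 cells against 2, it was 1.62 for Il1b and 0.776 for Cxcl2, and with members of exactly 1 UMI it was 2.48 and 3.12. The makeup of the members by UMI class thus moved with these ratios, and its part in them was not tested. Of 10 chemokine genes 5 were at least 2-fold higher in sensitive than in control (Cxcl1, Cxcl2, Ccrl2, Ccl9 and Ccl3) and none lower, beside 14.2% and 15.9% over all genes. In resistant 5 of 8 were higher than in control (Cxcl3, Ccrl2, Ccr1, Ccl6 and Ccl3) and 2 lower (Cxcl1 and Ccl4), beside 15.6% and 28.4%. All 52 sensitive UMIs of Ccl9 lay in 1 cell, a member under 0.5% S100a8 and S100a9, and 47 of the 58 of Cxcl1 lay there too. Of 18 inflammatory genes 6 were at least 2-fold higher in sensitive than in control and 3 lower (Ptgs2, Nos2 and Vegfa). Without the 4 cells under 0.5% S100a8 and S100a9 none of these last 3 was 2-fold lower (1.17, 0.935 and 0.701), and Clec4e (1.94) was no longer 2-fold higher. Wfdc17, a further whey acidic protein family member of this list, was at 31767 CPM in control and 24807 in sensitive (ratio 0.781), and Wfdc21 at 6185 and 4545 (0.735).

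Gadd45b and Cdkn1a, from the p53-target list, were higher in members of the DOX-treated tumors. Gadd45b, a stress-induced growth arrest gene, was at 79.4 CPM in control, 590 in sensitive and 356 in resistant, with 21, 34 and 5 UMIs, a ratio of 7.43 (4.19 to 13.5) for sensitive over control. Cdkn1a, the p53 target that codes for p21, was at 284, 833 and 854 CPM, a ratio of 2.94 (1.999 to 4.27) and 3.01 (1.49 to 5.58). The ratios of Cdkn1a were 1.26 and 5.79 with members of at least 2 Ngp and Camp UMIs. Of 5 p53-target genes with enough UMIs 3 were at least 2-fold higher in sensitive (Gadd45b, Mdm2 and Cdkn1a), beside 14.2% over all genes. Between resistant and control 2 of 3 were higher (Btg2 and Cdkn1a) and 1 lower (Gadd45a, from 1 resistant UMI), beside 15.6% and 28.4% over all genes. Gadd45b had too few UMIs there to be counted. In neutrophils without Ngp and Camp, Cdkn1a was at 986, 1014 and 1225 CPM, again with little difference between libraries. Of 5 interferon-stimulated genes Isg15 alone was 2-fold higher in sensitive than in control, with a list median of -0.17 against 0.14 on the log2 scale. Isg15, a ubiquitin-like modifier, was at 250, 954 and 2563 CPM, a ratio of 3.82 (2.62 to 5.55) for sensitive over control, and 33 of the 36 resistant UMIs lay in 1 cell. Without members that had markers of other cell types the resistant over control ratio of Isg15 was 0.663. Its level in neutrophils without Ngp and Camp was 615, 2120 and 1523 CPM, so Isg15 was higher in both DOX-treated tumors there too.

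Genes with at least 30 UMIs, seen in at least 5 sensitive members, were ranked by the interval bound nearer to 1. The 8 that led for sensitive over control were Il1a (9.63), Gadd45b, Ccrl2, Gm6977 (6.73), Ctsb (5.70), Hcar2 (4.80), Ctsl (4.59) and Cstb (4.46). Il1a encodes interleukin 1 alpha, Ctsb and Ctsl are lysosomal cathepsins, Cstb is a cathepsin inhibitor and Hcar2 is a receptor for hydroxybutyrate and niacin. Il1a was seen in 5 control and 5 sensitive cells, and without the 4 cells under 0.5% S100a8 and S100a9 its ratio was 5.89, that of Ctsb 2.60 and that of Cstb 3.02. Among members of at least 2 Ngp and Camp UMIs the ratio was 0.545 for Cstb and 1.75 for both Gm6977 and Hcar2. The lowest ratios belonged to genes carried by those cells. Col3a1 (a fibrillar collagen), Lox (a collagen cross-linker), Fn1, Mt1, Mt2, Hsp90b1 and Rpl10a were at 509, 154, 219, 1436, 980, 400 and 211 UMIs in the control members. Without the 3 control cells they were at 7, 4, 5, 19, 4, 4 and 22 UMIs, so these ratios describe 3 cells and not the 56. With the 4 cells left out 96 of 764 genes were 2-fold higher in sensitive (12.6%) and 48 lower (6.28%), 18.8% in all, and among the lowest ranked were Prok2 (0.236), Olfm4 (0.0569) and Ifitm6 (0.492).

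The rule for naming asks for a UMI in 5 cells of the higher library, so with 4 resistant members no gene higher there could be named. Among genes lower than control, Ltf and Saa3 (an acute-phase serum amyloid) stayed at least 2-fold lower without the cells under 0.5% S100a8 and S100a9. Saa3 had 851 UMIs in control, 35 in sensitive and 0 in resistant, at least 15.1-fold lower in resistant than in control. Without those cells 156 UMIs remained in control and the upper bound of the resistant over control ratio was 0.362. Of the 851 UMIs, 695 lay in 1 of those cells, and 99 of the remaining 156 lay in 1 other control member. In neutrophils without Ngp and Camp the resistant over control ratio of Saa3 was 1.23. Vim, which encodes vimentin, was at 248, 47 and 0 UMIs, at least 4.39-fold lower in resistant than in control and at least 3.82-fold lower than in sensitive. Without the cells under 0.5% S100a8 and S100a9 it was at 64, 18 and 0 UMIs, and the upper bound of the resistant over control ratio was 0.898. Between sensitive and resistant, Lgals3 (galectin 3, 5.00), Ero1l (4.22), Ctsd (2.90), Nfkbia (2.59) and Gapdh (2.09) were also higher in sensitive, over 19 cells against 4. Lgals3 was at 2.29 without the cells under 0.5% S100a8 and S100a9 and at 1.06 without members that had markers of other cell types. With members of at least 2 Ngp and Camp UMIs Gapdh was at 1.07, Nfkbia turned to 0.408 and Ero1l to 0.217.

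**Figure D5:**
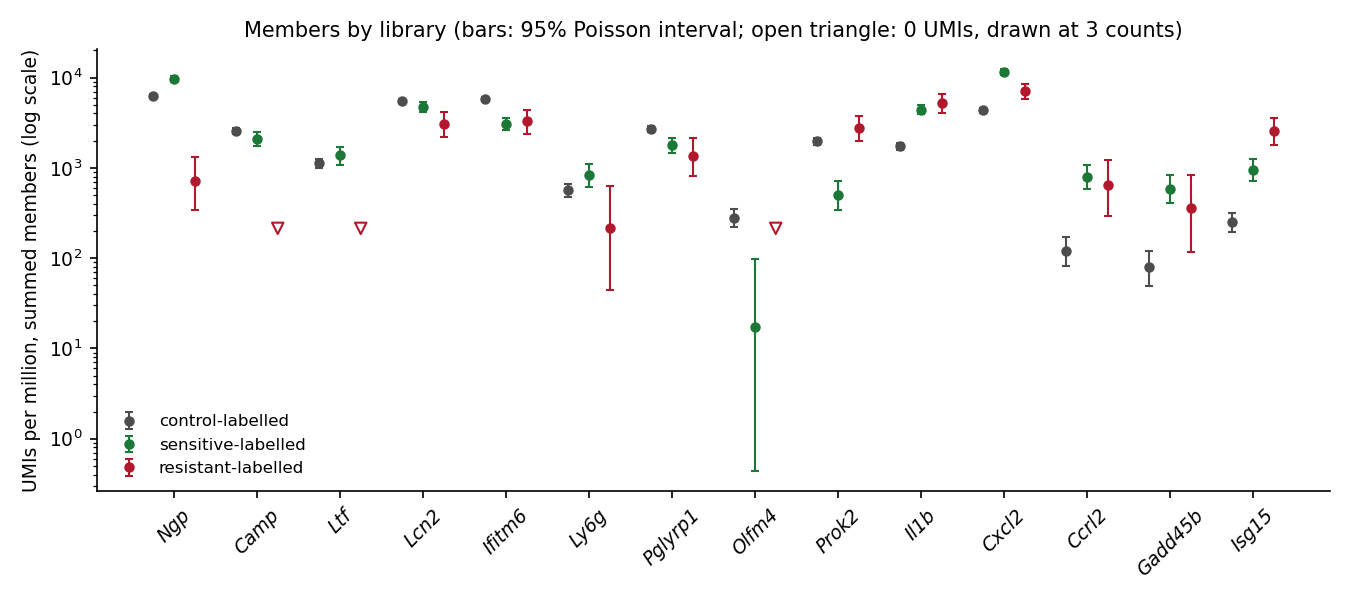
CPM (log axis) summed over all members of each library for granule, inflammatory and stress genes, with exact Poisson 95% bars and an open triangle at the 3-count limit where no UMI was seen. Lcn2 lies between 3061 and 5436 in the 3 libraries, Il1b is at 1725 in control against 4424 and 5196, and Ltf is at 0 in the resistant-labelled library.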

How the data were processed

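Cell Ranger (version 3.0.1 in the file headers of the 3 whole-tumor libraries) was used by the authors to map reads to mm10 and to make UMI counts. The deposited values were raw UMI counts per gene and barcode, unnormalized, over 54987 features. The 37 mitochondrial features held 0 UMIs, so mitochondrial share could not be used as a filter. The whole-tumor libraries had 1654559, 537293 and 1731940 UMIs in 501, 278 and 275 barcodes (control, sensitive, resistant). The T cell libraries of the series were not used here.

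Members were gated as described, with Retnlg matched by its gene identifier. Members, gene lists and comparisons were chosen with earlier results of these data known. Levels were UMIs summed per library as CPM. Shares had Clopper-Pearson, levels Poisson and ratios conditional binomial 95% intervals, and all of these and the floor of 3 counts cover counting error only. Members and other neutrophils were compared on sums per library with edgeR 4.0.16 (quasi-likelihood test, TMM, library block, filterByExpr, Benjamini-Hochberg, 0.05). The SE given with edgeR's changes is the absolute log2 fold change over the square root of the test's F statistic. DESeq2 1.42.0 was an alternative. The edgeR steps were tested on simulated data. Genes named by rank were, for libraries, the 8 highest and 8 lowest ratios past 2-fold with at least 30 UMIs and 5 cells in the higher library, ordered by the interval bound nearer to 1, and, for members against others, the 10 largest changes in each direction that passed and had the same sign in 3 libraries. Genes of the rule and of the lists could also be named. Some genes that met these rules are not reported here. Thinning used 500 UMIs.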

Additional observations from a re-analysis of the deposited data

How the results depend on the processing

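No paired analysis between groups was possible because the labels give no replicate numbers and each group had 1 library. Members and other neutrophils were paired by library in the edgeR test. Depth limits the resistant-labelled library most, with 4 members and 14049 UMIs.

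Of 45 shares under other settings 31 stayed within counting error. With at least 2 UMIs of Ngp and Camp, members were 6.15% of kept cells in control, 0.743% in sensitive and 1.14% in resistant (9.97%, 0.913% and 2.22% of neutrophils), so that resistant lay above sensitive. With at least 5 UMIs they were 4.10%, 0.743% and 0.380% of kept cells in control, sensitive and resistant (6.64%, 0.913% and 0.741% of neutrophils). With cells thinned to 500 UMIs and the gate applied to the thinned counts, they were 5.12% of kept cells in control and 2.31% in sensitive. Of neutrophils they were 10.8% (25 of 231) and 3.77% (6 of 159), whereas the thinned shares given earlier kept the gate of the full counts.

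Counts of genes past 2-fold (sensitive over control, resistant over control, sensitive over resistant) were 94, 174 and 37 with members of at least 2 UMIs, 98, 119 and 10 with a minimum of 100 UMIs per gene and 977, 1305 and 278 with a minimum of 10. They were 153 and 105 for the comparisons with control among members without markers of other cells, and 144 and 217 without cells under 0.5% S100a8 and S100a9. Sensitive over resistant was 96 with members of exactly 1 UMI.

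Of 660 gene ratios 459 moved by less than the main interval, 176 moved further and 25 turned. With members of at least 2 UMIs the turned ratios were, for sensitive over control, Cstb 0.545, Fn1 1.97, Cxcl2 0.776 and Socs3 0.562, for resistant over control Mt2 4.02, Hsp90b1 4.02 and Mt1 1.86, and for sensitive over resistant Nfkbia 0.408 and Ero1l 0.217. Without members holding markers of other cells they were, for resistant over control, Ccrl2 0.470, Mt2 10.8, Hsp90b1 5.41, Mt1 3.61 and Isg15 0.663. Without cells under 0.5% S100a8 and S100a9 they were Hsp90b1 1.05 and Mt1 1.99 for sensitive over control and Mt2 3.78, Hsp90b1 3.78 and Mt1 2.39 for resistant over control. With members of exactly 1 UMI, Ngp was 2.27 and Pglyrp1 1.51 for resistant over control. Ndrg1 (sensitive over control) turned to 1.02 as a mean over cells, 1.55 without the deepest member, 2.42 without markers of other cells and 1.68 without cells under 0.5% S100a8 and S100a9. The cause was not tested.

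The number of genes that differed between members and other neutrophils was 19 with DESeq2, 13 with no library block, 2 after thinning, 123 with members of at least 2 UMIs, 183 with at least 5, 2 with exactly 1, 120 without cells under 0.5% S100a8 and S100a9, and 21 to 152 when a library was left out. Of 493 gene differences 347 kept their direction and side of the threshold, 133 fell short of it, 11 passed it and 2 turned, both of Ndrg1 (-2.26 and -2.43). Settings on exactly 1 UMI, at least 5 UMIs in the test and cells under 0.5% S100a8 and S100a9 were chosen after seeing the data.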
